A study of Mus musculus with 6 samples.

Results

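The cytosolic ribosome reads mRNA with its small subunit and joins amino acids in its large subunit, and each subunit is built from ribosomal RNA and a set of ribosomal proteins. The genes of these proteins, named *Rpl* for the large and *Rps* for the small subunit, are among the most strongly transcribed genes of growing cells, and their products are assembled with rRNA in the nucleolus at roughly equal numbers. Their mRNAs typically begin with a run of pyrimidines, the 5′ terminal oligopyrimidine (TOP) start, through which mTORC1 and LARP1 set their translation. Blood formation is sensitive to the dose of single ribosomal proteins, since loss of one copy of *Rps19*, *Rps14*, *Rpl5* or *Rpl11* is known from Diamond-Blackfan anemia or from the 5q- syndrome.

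The ribosomal protein genes were taken from the table by symbol, as *Rpl* or *Rps* followed by a digit, with *Rplp0*, *Rplp1*, *Rplp2* and *Rpsa*. Of 423 such symbols, 319 with "-ps", 10 S6 kinase symbols starting with *Rps6k* and 4 rows at 0 in all libraries were dropped, which left 90 of the 26402 rows with values. These were 53 large subunit symbols, 36 small subunit symbols and *Rps19bp1*, which names a protein that binds RPS19 and not a ribosomal protein. Of them, 77 are called core genes here (46 large and 31 small). The others were 5 protein-coding paralogs ending in l or l1, 6 rows annotated as pseudogenes in GENCODE M21, the protein-coding copy *Rps27rt*, and *Rps19bp1*. The 4 rows at 0 were *Rps12l1*, *Rps23rg1*, *Rpl10l* and *Rpl39l*.

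RNA was sequenced from 3 WT and 3 Piezo1cKO libraries of leukemia stem cells (LSCs), with the question of what loss of the mechanosensitive channel PIEZO1 changes in them. Both groups came from lineage-negative bone marrow cells transduced with an MLL-AF9 retrovirus carrying YFP and transplanted into irradiated C57BL/6 mice, and the LSCs, defined by the study as YFP+Lin-Sca-1-c-Kit+ cells with CD34 and high CD16/32, were sorted from leukemic mice labelled as 8 to 10 weeks old. Donors of the Piezo1cKO group (Piezo1cko in the labels) carried Mx1-cre and Piezo1 fl/fl, and WT donors were littermates with Piezo1 fl/fl and no Cre, both given pIpC. Mx1-cre acts in all cells that respond to interferon, so deletion was not limited to LSCs, and WT cells had no Cre of their own. The labels do not say that the libraries came from separate mice, so the p-values measure the spread between these samples, which may be technical.

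The table gives log2 values in which differences between libraries have been shrunken, most of all in genes with few reads, so fold changes on this deposited scale are smaller than those of the reads. Reads were therefore recovered by undoing the shrinkage, and normalized recovered reads are reads divided by the library's size factor. Recovered reads on genes were 15406244, 14745590 and 15483600 in WT replicates 1 to 3 and 14112097, 15094232 and 14456723 in Piezo1cKO replicates 1 to 3. *Piezo1* itself had 101, 92.8 and 109 normalized recovered reads in WT LSCs and 36.6, 56.5 and 45.8 in Piezo1cKO LSCs, in the direction of the labels (log2 fold change -0.29 on the deposited scale, adjusted p = 5.8e-06, limma).

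Most ribosomal protein genes were higher in Piezo1cKO LSCs, by a small amount. At an adjusted p under 0.05 (limma over 16746 genes, Benjamini-Hochberg), 56 of the 90 members rose (62.2%, against 31.6% of all genes tested) and 11 fell (12.2%, against 31.4%), while 23 did not pass. The median log2 fold change on the deposited scale was 0.13 for the members, with quartiles at 0.03 and 0.22, beside 0.00 for all genes. In 57 members the 3 Piezo1cKO libraries lay above the 3 WT libraries (33.5% of all genes did so), and in 11 they lay below (33.1% of all genes). On recovered reads (limma-voom) 54 members rose and 11 fell, beside 30.7% and 32.3% of all genes, and each of these was called in the same direction on the deposited scale. The median there was 0.19 for the members and -0.01 for all genes.

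Together, the members took 1.37%, 1.38% and 1.37% of the recovered reads in WT replicates 1 to 3 and 1.61%, 1.63% and 1.65% in Piezo1cKO replicates 1 to 3, a ratio of the group means of 1.19. The groups did not overlap. Because these are bulk libraries, a different number of cells of a type and a different amount of RNA per cell cannot be told apart. Reads were spread unevenly, as *Rps25* held 12.4% and *Rpl5* 8.68% of the reads on members. Without both, the share was 1.09% to 1.11% in WT and 1.24% to 1.29% in Piezo1cKO libraries.

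The reads of the small subunit rose more than those of the large one, mostly through *Rps25* and *Rps3a1*. Among 36 small subunit members 25 rose and 4 fell, with a median log2 fold change of 0.17, and among 53 large subunit members 31 rose and 7 fell, with a median of 0.09. For the core genes alone, 23 of 31 small subunit genes rose and 2 fell (median 0.17), and 31 of 46 large subunit genes rose and 4 fell (median 0.13). The share of recovered reads on small subunit members was 0.620%, 0.624% and 0.616% in WT libraries and 0.773%, 0.786% and 0.793% in Piezo1cKO libraries. For the large subunit it was 0.744%, 0.755% and 0.747%, against 0.829%, 0.839% and 0.849%. The group means thus stood in a ratio of 1.26 for the small and 1.12 for the large subunit. Without *Rps25* and *Rps3a1* the small subunit ratio was 1.16, and without *Rpl5* the large subunit ratio was 1.11. Reads on small subunit members per read on large subunit members were 0.834, 0.826 and 0.825 in WT libraries and 0.932, 0.937 and 0.934 in Piezo1cKO libraries, without overlap. With *Rps25* and *Rps3a1* left out of the small subunit these values came closer, to 0.593, 0.590 and 0.590 against 0.604, 0.614 and 0.613. The rows *Rps3a2* and *Rps3a3*, close copies of *Rps3a1* that were lower in Piezo1cKO libraries, were kept in these sums. Genes are not replicates of a condition, so the subunits are compared as a description and without a p-value.

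**Figure D1:**
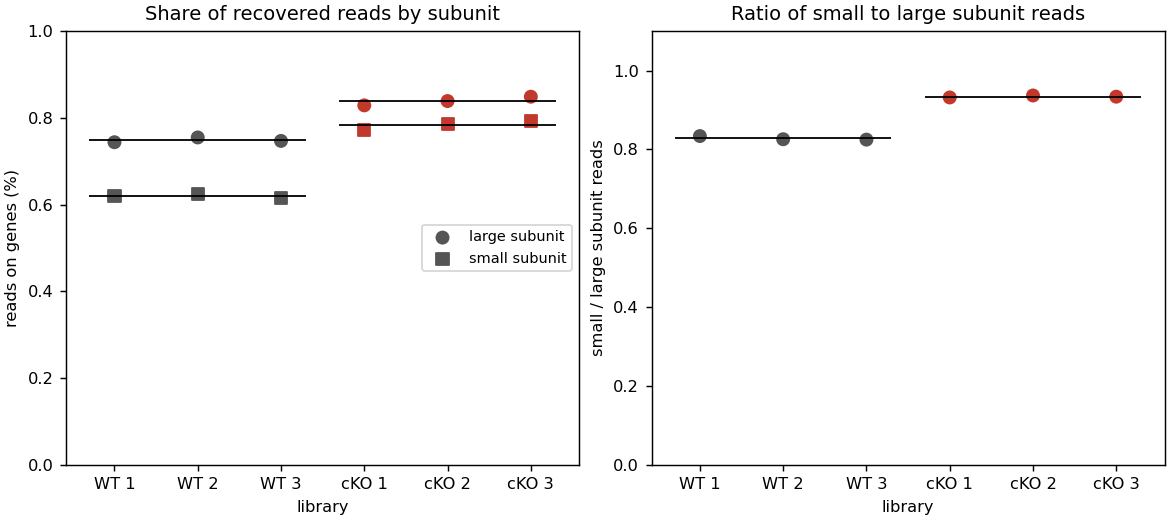
Left, percent of each library's recovered reads on large (circles) and small (squares) subunit members, right, reads on small divided by reads on large subunit members, for the 3 WT (grey) and 3 Piezo1cKO (red) libraries, with lines at group means. Both shares and the ratio were higher in every Piezo1cKO library, the ratio at 0.932 to 0.937 against 0.825 to 0.834.

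*Rps3a1* had the largest rise of the core genes. It encodes a small subunit protein near the mRNA exit and lies at chr3:86137940-86142702 on the minus strand of GRCm38. Its normalized recovered reads were 3662, 3727 and 3587 in WT libraries and 7932, 7637 and 7762 in Piezo1cKO libraries, 2.13-fold higher. The log2 fold change was 0.79 on the deposited scale (SE 0.02, adjusted p = 1.24e-15, limma) and 1.07 on recovered reads (SE 0.03).

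*Rps3a2* (chr14:88123017-88123808) and *Rps3a3* (chr13:108670603-108671397) are intronless copies of *Rps3a1*, annotated as processed pseudogenes, and went the other way. *Rps3a2* had 463, 396 and 452 normalized recovered reads in WT libraries and 5.22, 2.92 and 4.07 in Piezo1cKO libraries, 0.932% of the WT mean. *Rps3a3* had 696, 638 and 616 reads against 21.9, 15.6 and 10.2, 2.45% of the WT mean. The groups were far apart in both rows. These were the members past the DEG thresholds of the study (adjusted p under 0.05 and absolute log2 fold change over 1), which 0.257% of all genes passed as higher and 0.561% as lower. On recovered reads, where differences are not shrunken, 5 members were past these thresholds, *Rps4l* and *Rps3a1* as higher (12.6% of all genes) and *Rps3a2*, *Rps3a3* and *Rpl3l* as lower (12.3% of all genes). On the deposited scale the log2 fold changes were -1.92 for *Rps3a2* (SE 0.04, adjusted p = 2.17e-17, limma) and -2.18 for *Rps3a3* (SE 0.04, adjusted p = 7.34e-18, limma), and on recovered reads -6.63 and -5.39.

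The copies are close enough to share reads. The *Rps3a2* transcript differed from that of *Rps3a1* at 4 of 792 aligned bases (99.5% identity) and that of *Rps3a3* at 9 of 795 (98.9%), and 53.4% and 18.4% of their 100-base windows occur unchanged in *Rps3a1*. How reads that map to several places were counted is not given in the sources used here. One stretch of the coding sequence shows how the rows can be told apart, with the positions at which the 3 transcripts differ in capitals (GENCODE M21 transcripts, bases 742 to 801 of *Rps3a1* and 609 to 668 of the copies).
Rps3a1: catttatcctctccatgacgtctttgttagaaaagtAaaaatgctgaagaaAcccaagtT
Rps3a2: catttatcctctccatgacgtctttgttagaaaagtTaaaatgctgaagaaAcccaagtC
Rps3a3: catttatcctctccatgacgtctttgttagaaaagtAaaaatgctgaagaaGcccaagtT
Added up, the 3 rows had 4820, 4760 and 4654 normalized recovered reads in WT libraries and 7959, 7656 and 7776 in Piezo1cKO libraries, a ratio of 1.64. The sum thus rose less than *Rps3a1* alone, and its groups still did not overlap.

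**Figure D2:**
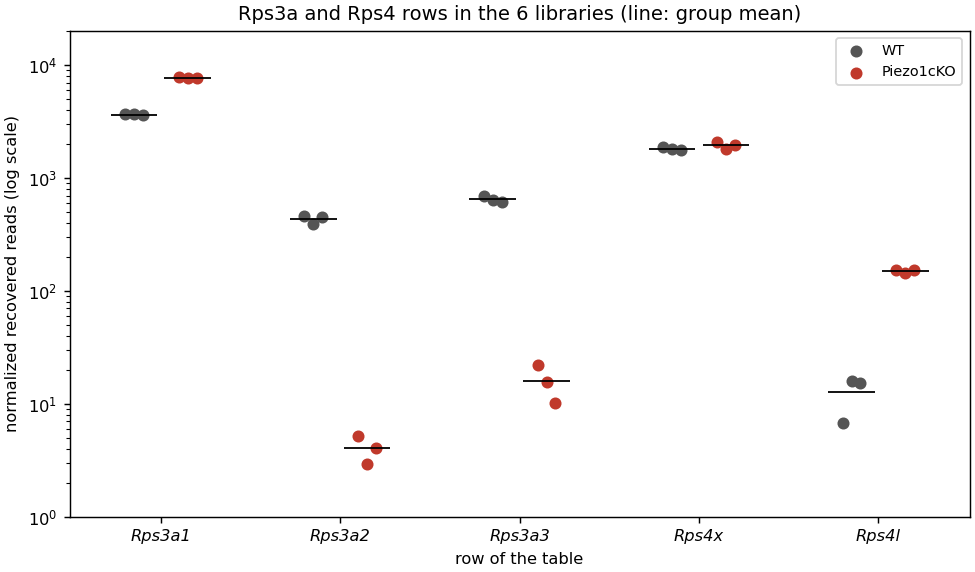
Normalized recovered reads (log axis) of the *Rps3a* and *Rps4* rows in the 3 WT (grey) and 3 Piezo1cKO (red) libraries, with lines at group means. *Rps3a1* rose 2.13-fold while *Rps3a2* and *Rps3a3* were at 0.932% and 2.45% of their WT means, and *Rps4l* was 11.8-fold higher beside an overlapping *Rps4x*.

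Of the other small subunit genes, *Rps28*, *Rps24* and *Rps27* had the next largest rises by the deposited values. On recovered reads *Rps21* had a log2 fold change of 0.79, from a mean of 168 reads in WT to 291 in Piezo1cKO LSCs, beside 0.78 for *Rps28*. *Rps28*, a short protein of the head of the subunit, had 462, 368 and 349 normalized recovered reads in WT libraries and 679, 672 and 674 in Piezo1cKO libraries. WT replicate 1 stood above the other WT libraries and still below every Piezo1cKO library (log2 fold change 0.47 on the deposited scale, SE 0.05, adjusted p = 8.94e-08, limma). *Rps24*, one of the genes of Diamond-Blackfan anemia, had 1723, 1617 and 1610 reads against 2524, 2540 and 2612 (0.44, SE 0.03, adjusted p = 2.28e-10, limma). *Rps27* had 562, 581 and 601 reads against 908, 988 and 923 (0.44, SE 0.03, adjusted p = 3.6e-09, limma). In both genes the rise was many times the spread within a group.

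*Rps25*, a small subunit protein known for its part in initiation at internal ribosome entry sites, was the member with the most reads and the most reads per kilobase. It had 23091, 22838 and 22541 normalized recovered reads in WT libraries and 32161, 32260 and 32311 in Piezo1cKO libraries, a 1.41-fold rise (log2 fold change 0.37 on the deposited scale, SE 0.01, adjusted p = 1.36e-13, limma). Per kilobase of transcript the level in WT LSCs was 39555 reads, beside a median of 2460 over the core small subunit genes and 2460 over the core large subunit genes. Next among small subunit genes came *Rps14* with 9916 and *Rps9* with 7428 reads per kilobase. *Rps14* rose by a log2 fold change of 0.12 (adjusted p = 0.000142, limma), while *Rps9* had 0.02 (adjusted p = 0.484, limma) and overlapping groups.

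The falls of the small subunit outside the *Rps3a* copies were small. *Rps6*, the substrate of the S6 kinases, had 5467, 5438 and 5515 normalized recovered reads in WT libraries and 5015, 4844 and 4943 in Piezo1cKO libraries. The groups were apart (deposited log2 fold change -0.11, adjusted p = 0.000376, limma).

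In the large subunit *Rpl38*, *Rpl36a*, *Rpl9* and *Rpl37a* were among the members with the largest rises. *Rpl38*, known for its effect on the translation of Hox mRNAs in mouse embryos, had 1050, 1014 and 1061 normalized recovered reads in WT libraries and 1484, 1590 and 1609 in Piezo1cKO libraries. Its log2 fold change was 0.39 on the deposited scale (SE 0.03, adjusted p = 4.94e-09, limma). *Rpl9* had 2554, 2634 and 2624 reads against 3495, 3499 and 3457. Deposited log2 fold changes were 0.31 for *Rpl36a*, 0.30 for *Rpl9* and 0.27 for *Rpl37a*, all with groups apart.

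*Rpl29* (chr9:106429454-106431568) had the largest fall of the core genes. It had 1706, 1684 and 1845 normalized recovered reads in WT libraries and 1061, 1165 and 1112 in Piezo1cKO libraries, 63.8% of the WT mean (log2 fold change -0.44 on the deposited scale, SE 0.03, adjusted p = 2.31e-09, limma). Reads of genes with close copies are uncertain here: other annotated genes hold 62.0% of the windows of *Rpl29*, 98.4% of those of *Rps27*, 91.1% of *Rpl5*, 83.6% of *Rpl36a* and of *Rps6*, 79.2% of *Rpl9*, 66.9% of *Rps28* and 46.3% of *Rpl38*. For *Rps24* they hold 10.7%, counted over a long transcript of 1613 bases. The share was 80.1% for *Rpl24*, 59.0% for *Rpl36al*, 45.3% for *Rps3a1* and 41.4% for *Rps25*. *Rpl24* fell by 0.13 from few reads (95.1, 78.7 and 80.8 against 44.9, 67.3 and 67.2, adjusted p = 0.0106, limma), a call lost without WT replicate 1 (-0.11, adjusted p = 0.068) or without Piezo1cKO replicate 1 (-0.09, adjusted p = 0.0729). *Rpl30* fell by 0.11 (adjusted p = 0.00661, limma).

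The large subunit genes with the most reads per kilobase were *Rpl5*, *Rpl34* and *Rpl4*, at 8725, 6554 and 6020 in WT LSCs. *Rpl5*, which carries 5S rRNA into the ribosome and can bind MDM2 with RPL11, had 18440, 17385 and 17706 normalized recovered reads in WT libraries and 21474, 20361 and 20246 in Piezo1cKO libraries, a rise of 0.16 (SE 0.02, adjusted p = 2.17e-06, limma). *Rpl11* had 0.07 (adjusted p = 0.152) and *Rpl34* 0.04 (adjusted p = 0.223), both with overlapping groups. *Rpl4*, which lines the exit tunnel, had 9341, 9259 and 9177 reads against 8634, 8769 and 8799, a log2 fold change of -0.06 (adjusted p = 0.00968, limma), but with the libraries centred on their median it was -0.04 (adjusted p = 0.0955), with quantile normalization -0.04 (adjusted p = 0.0617), and no longer passed. Of the stalk proteins that bind elongation factors, *Rplp1* and *Rplp2* rose by 0.25 and 0.26, while their base *Rplp0* had 0.03 (adjusted p = 0.198).

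**Figure D3:**
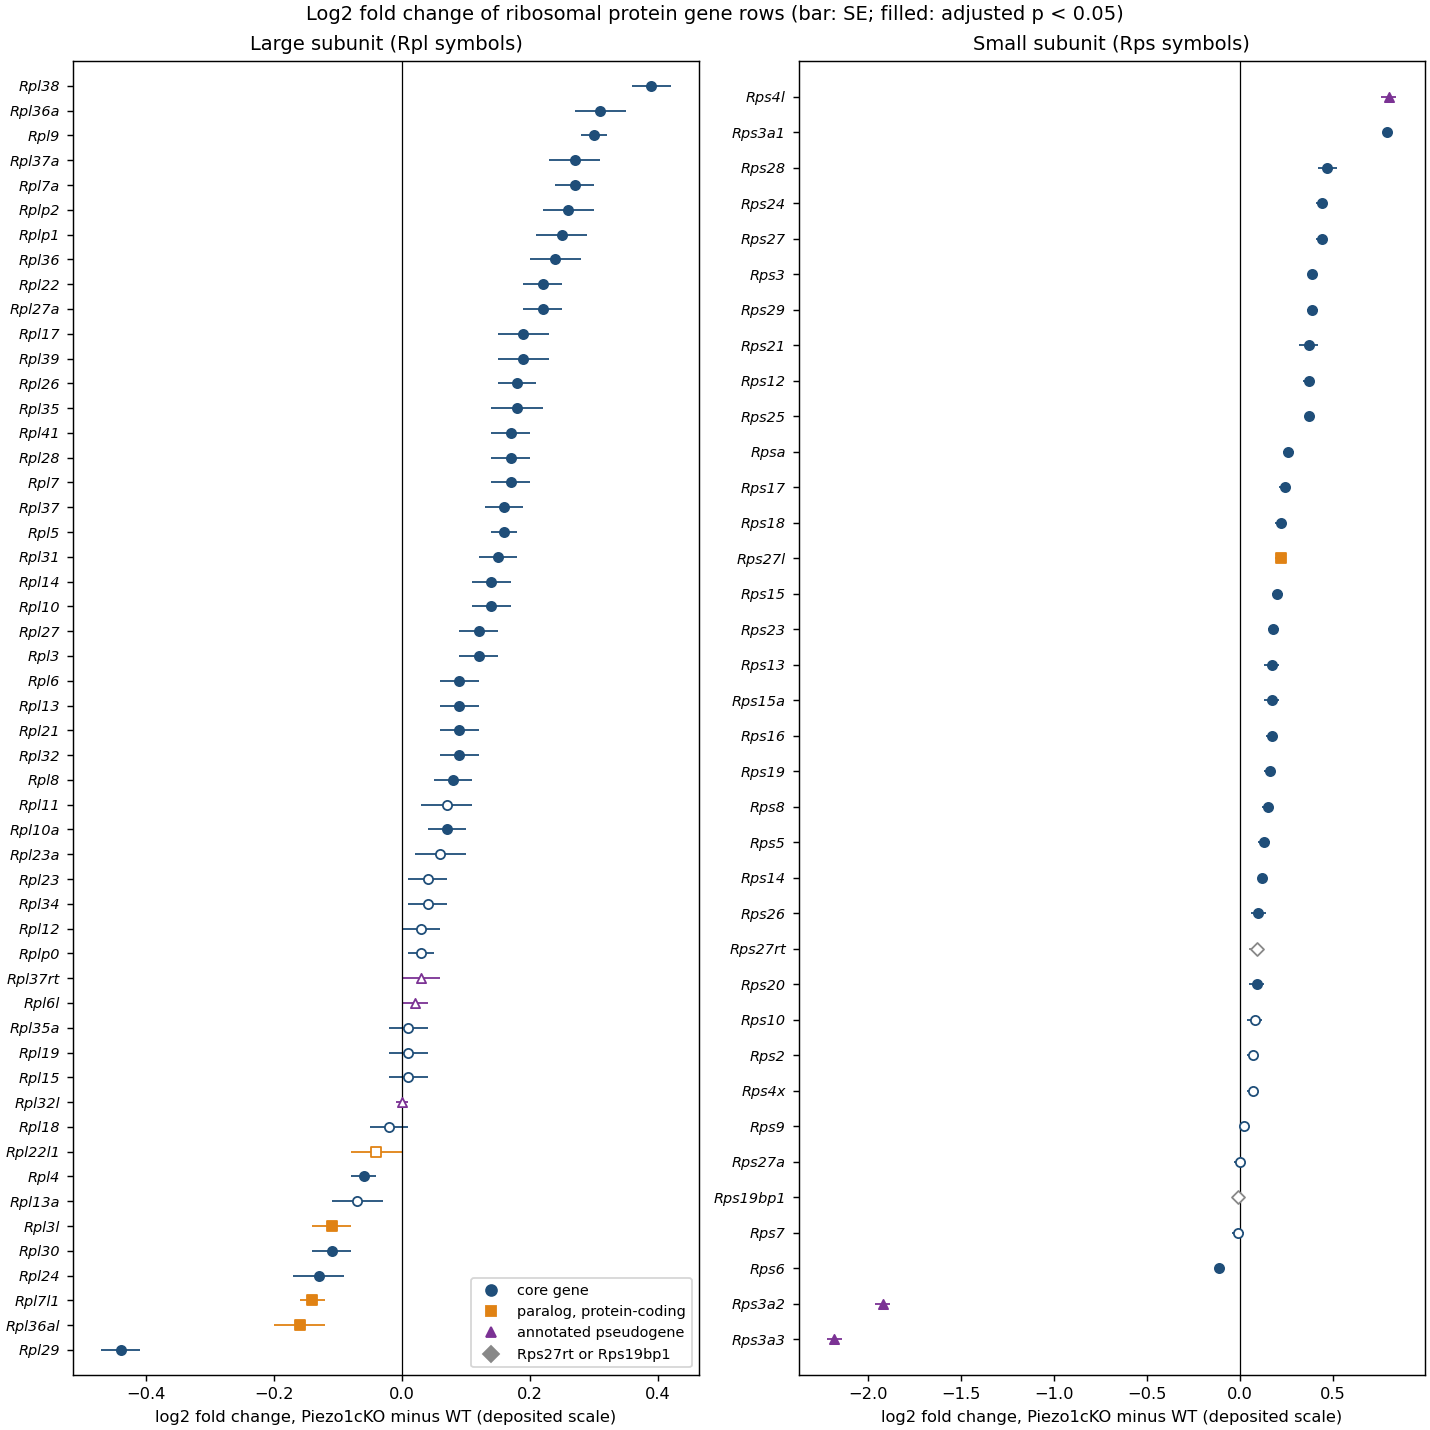
Log2 fold change on the deposited scale, Piezo1cKO minus WT, of large subunit (left) and small subunit (right, with *Rps19bp1*) rows, with SE from limma over 3 libraries a group, filled symbols at an adjusted p under 0.05 and the shape giving the kind of row (core, paralog, pseudogene or other). The axes of the panels differ: the large subunit ran from -0.44 to 0.39 and the small subunit from -2.18 to 0.80, with both ends of the latter held by pseudogene rows.

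Paralogs ending in l or l1 were compared with their parent genes as a log2 ratio in each library. Of 8 such paralogs with values, 2 rose (*Rps4l* and *Rps27l*), 3 fell (*Rpl36al*, *Rpl7l1* and *Rpl3l*) and 3 did not pass (*Rpl22l1*, *Rpl32l* and *Rpl6l*), and their median was -0.02. These shares, 25% and 37.5%, lie near the 31.6% and 31.4% of all genes. On the deposited scale the ratio to the parent was lower in every Piezo1cKO library for each pair but *Rps4l* to *Rps4x*, where it was higher. The deposited values of *Rpl32l* were 1.31 in every library and those of *Rpl6l* 2.87 to 2.96, so the ratios of these pairs mostly restate the values of their parents. Each of the 8 pairs had p = 0.1 by an exact two-sided permutation test (0.1 adjusted), the smallest p that 3 libraries against 3 can give, so none can pass.

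*Rps4l* (chr6:148354656-148355598) is annotated as a transcribed processed pseudogene and is 81.2% identical to its X-linked parent *Rps4x*. It had 6.79, 16.1 and 15.4 normalized recovered reads in WT libraries and 154, 145 and 153 in Piezo1cKO libraries, an 11.8-fold rise (log2 fold change 0.80 on the deposited scale, SE 0.04, adjusted p = 1.89e-12, limma, and 3.59 on recovered reads). *Rps4x* had 1885, 1801 and 1757 reads against 2095, 1815 and 1955, which overlap (0.07, adjusted p = 0.0727). *Rps4l* thus went from 16.2 to 191 reads per kilobase, beside 1861 and 2005 for *Rps4x*. Only 2.0% of its windows occur in another gene, and none in *Rps4x*.

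*Rps27l*, a p53 target, rose from 1885, 1811 and 1694 normalized recovered reads to 2273, 2181 and 2274 (log2 fold change 0.22 on the deposited scale, adjusted p = 5.67e-06, limma). This was less than its parent *Rps27*, and the log2 ratio of the pair on reads went from 1.63 to 1.25. *Rps27l* had more reads per kilobase than *Rps27* in both groups, 3601 against 1685 in WT LSCs and 4495 against 2724 in Piezo1cKO LSCs, but 98.4% of the windows of *Rps27* and 0.0% of those of *Rps27l* occur in another gene, so reads of *Rps27* could be lost or split in counting.

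*Rpl36al*, the autosomal copy of X-linked *Rpl36a*, had 146, 154 and 139 normalized recovered reads in WT libraries and 95.1, 111 and 118 in Piezo1cKO libraries, a fall (log2 fold change -0.16, adjusted p = 0.00196, limma), while *Rpl36a* rose from 496, 536 and 472 to 707, 678 and 747 reads. Their log2 ratio on reads went from -1.77 to -2.71. *Rpl7l1* fell from 4034, 4222 and 4077 to 3500, 3630 and 3608 reads (-0.14, adjusted p = 6.74e-05, limma), and *Rpl7* rose by 0.17. Here too the paralog had more reads per kilobase, 3138 beside 1177 for *Rpl7* in WT LSCs. However, 28.2% of the windows of *Rpl7* and 2.2% of those of *Rpl7l1* occur in another gene, so reads of *Rpl7* could be lost or split in counting. *Rpl3l*, the form of skeletal and heart muscle, had 28.1, 26.2 and 31.7 reads against 15.7, 11.7 and 10.2 (-0.11 on the deposited scale and -1.20 on recovered reads, adjusted p = 0.00163 and 0.00166, limma), and *Rpl3* rose by 0.12.

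*Rpl22l1* had 126, 122 and 154 reads against 127, 135 and 107, which overlap, and its parent *Rpl22* rose by 0.22. The pseudogene rows *Rpl32l* and *Rpl6l* had means of 2.61 and 5.88 reads in WT LSCs and 2.35 and 9.17 in Piezo1cKO LSCs, at which no difference was detectable, and their parents *Rpl32* and *Rpl6* both rose by 0.09. On reads the ratios of these 2 pairs overlapped between groups (exact permutation p = 0.2 and 0.7), while the other 6 pairs kept their direction and did not overlap. *Rps27rt* and *Rpl37rt* had deposited log2 fold changes of 0.09 and 0.03 (adjusted p = 0.0633 and 0.416), and *Rps19bp1* had -0.01 (adjusted p = 0.779).

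**Figure D4:**
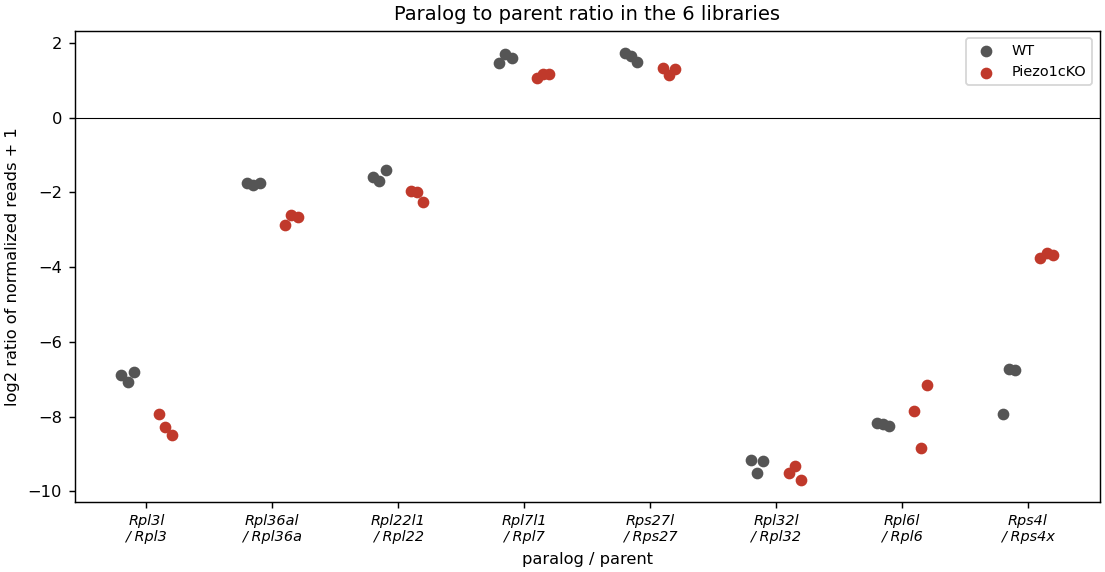
Log2 ratio of paralog to parent, from normalized recovered reads with 1 added, in the 3 WT (grey) and 3 Piezo1cKO (red) libraries. The *Rps4l* ratio went from -7.13 to -3.69 and the *Rpl3l* ratio from -6.92 to -8.24, and only *Rpl7l1* and *Rps27l* lay above 0.

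The fold change of the core genes was also set beside features of their sequence. Almost all have processed copies in the genome, so the core genes were split by the share of their 100-base windows that occur in another annotated transcript. In the 14 core genes with under 20% of windows shared, 11 rose and 2 fell, with a median of 0.15 on the deposited scale, and in the other 63, 43 rose and 4 fell, with the same median of 0.15. The share is taken over the chosen transcript, and a long one can lower it. *Rps20* had 5.9% over 3706 bases. Core genes with transcripts under 600 bases had the largest median, 0.22 (22 of 28 rose). Those from 600 to under 1000 bases had 0.10 (20 of 32) and those of 1000 bases or more 0.14 (12 of 17), so the order did not follow length throughout. Lengths are of 1 chosen transcript per gene, such as 3706 bases for *Rps20*, 1908 for *Rps3* and 1613 for *Rps24*. The reads may come from other transcripts of these genes, and reads per kilobase rest on the same lengths. On recovered reads the medians were 0.36, 0.13 and 0.18. Over the 77 core genes, the log2 fold change of recovered reads had a Spearman correlation of -0.30 (Pearson -0.10) with transcript length and of -0.07 (Pearson -0.09) with the share of windows shared. These points are genes of the same libraries and no p is given.

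TOP starts were searched as a run of at least 5 bases of C or T, opening with C, within 5 bases of the annotated start on the gene's own strand (RefSeq promoter table, GRCm38.p6). Of 66 members with an annotated start there, 31 had one (47.0%), against 23.2% of the 14542 genes of that table with values. Within 25 bases of the start the shares were closer, at 81.8% of the members and 60.6% of those genes. Starts of members that rose and of one that fell are given, with the run in capitals: *Rps24* at chr14:24490668-24490697 (plus strand), *Rps27* at chr3:90213629-90213658 (minus strand), *Rpl38* at chr11:114668570-114668599 (plus strand) and *Rps6* at chr4:86857348-86857377 (minus strand). *Rps3a1*, the core gene that rose most, had no such run in the window at chr3:86142649-86142678 (minus strand). Its start in GENCODE M21, at chr3:86142702, lies outside this window, and runs at that start were not searched.
Rps24: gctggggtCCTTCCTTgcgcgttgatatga
Rps27: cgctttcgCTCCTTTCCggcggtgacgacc
Rpl38: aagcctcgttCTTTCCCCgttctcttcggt
Rps6: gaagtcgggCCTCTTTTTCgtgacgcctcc
Rps3a1: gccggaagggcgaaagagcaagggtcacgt
Among the 31 members with the run 17 rose and 1 fell (median 0.14 on the deposited scale), and among the 35 without it 23 rose and 5 fell (median 0.16). On recovered reads the order of the medians turned, to 0.23 with the run and 0.20 without it. A match of letters is a description, and annotated starts can lie some bases from the true ones.

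Other genes of translation were counted in lists, beside the 31.6% of all genes that rose and the 31.4% that fell. Ribosomal proteins with other symbols differed little: *Fau*, which encodes RPS30 with a ubiquitin-like part, had 0.10 (adjusted p = 0.0328, limma, and 0.0537 on recovered reads), and the small subunit scaffold *Rack1* had 0.03 (adjusted p = 0.258). The groups overlapped in *Fau*, and both genes are also in the TOP list. Of 24 other genes known for TOP mRNAs, 11 rose (45.8%) and 5 fell (20.8%), with a median of 0.08. *Tpt1*, the translationally controlled tumor protein, rose from 5047, 4846 and 5008 normalized recovered reads to 7074, 6594 and 6487 (0.32), and *Hnrnpa1* and *Npm1* had -0.38 and -0.23.

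Initiation factors were mostly lower. Of 35 tested, 24 fell (68.6%) and 3 rose (8.57%), with a median of -0.15. *Eif3b*, the scaffold subunit of eIF3, had 10398, 10432 and 10391 normalized recovered reads in WT libraries and 1180, 1212 and 1214 in Piezo1cKO libraries, 11.5% of the WT mean (log2 fold change -2.24 on the deposited scale, SE 0.02, adjusted p = 1.63e-21, limma). *Eif2s2*, the beta subunit of the factor that brings the initiator tRNA, had -0.58, and the helicase *Eif4a1* had -0.40. The rises were those of *Eif3f* (0.31), the poly(A) binding protein *Pabpc1* (0.12) and *Eif2b2* (0.09). Of 10 genes listed for elongation and termination, 3 rose (30%, near the share of all genes), *Eef1b2* (0.26), *Eef1a1* (0.22) and *Eef2* (0.11), and 5 fell (50%). The list is not of elongation and termination factors alone. It also holds *Eef1e1* (-0.13), counted among the falls, and the kinase *Eef2k* (0.04), which did not pass. *Gspt1*, the release factor eRF3a, had 2384, 2333 and 2311 reads against 832, 777 and 787 (-1.06, adjusted p = 9.58e-16, limma), its partner *Etf1* had -0.42 and *Eef1g* -0.16. Of these lists, *Eef1b2*, *Eef1a1*, *Eef2*, *Eif3f* and *Pabpc1*, which rose, *Eef1g*, *Eif3e* (-0.15) and *Eif4b* (-0.10), which fell, and *Eef1d* (-0.02) and *Eif3h* (0.07), which did not pass, are also in the TOP list.

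Factors that assemble the ribosome were lower too. Of 37 factors of small subunit assembly 27 fell (73.0%) and 2 rose (5.41%, median -0.19), of 42 of large subunit assembly 22 fell (52.4%) and 2 rose (4.76%, median -0.12), and of 20 genes of rRNA synthesis and modification 12 fell (60%) and 3 rose (15%, median -0.11). *Pno1*, *Tsr1* and *Rrp9* were among those that fell in the first list (-0.39, -0.36 and -0.36), while *Krr1* (0.25) and *Tsr2*, the chaperone of RPS26 (0.16), rose. *Zfp622*, which acts late on the large subunit, went from 1066, 1150 and 1103 normalized recovered reads to 588, 623 and 664 (-0.53), *Sdad1* had -0.41 and *Rrs1* -0.37, and *Wdr12* (0.20) and *Noc2l* (0.12) rose. In the rRNA list the nucleolar proteins *Nolc1*, *Tcof1* and *Npm1* had -0.42, -0.31 and -0.23, and the polymerase I factors *Taf1d* (0.33), *Ttf1* (0.25) and *Ubtf* (0.07) rose.

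Of 12 genes listed for the control of TOP mRNAs, which are mTORC1 pathway genes and the RNA-binding proteins *Larp1*, *Larp4* and *Cnbp*, 8 fell (66.7%) and 0 rose (limma, median -0.11). The count that rose was also 0 at an unadjusted p under 0.05 and by limma-voom, and 1 with the libraries centred or quantile normalized. *Eif4ebp1*, which holds back the cap-binding protein until mTORC1 phosphorylates it, had 5452, 5425 and 5373 normalized recovered reads in WT libraries and 2482, 2542 and 2569 in Piezo1cKO libraries (-0.79, adjusted p = 2.57e-15, limma). *Rheb*, which activates mTORC1, and *Tsc2*, which inhibits *Rheb*, had -0.39 and -0.32. *Larp1* had -0.14 (adjusted p = 0.00388) and *Mtor* -0.12 (adjusted p = 0.012).

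**Figure D5:**
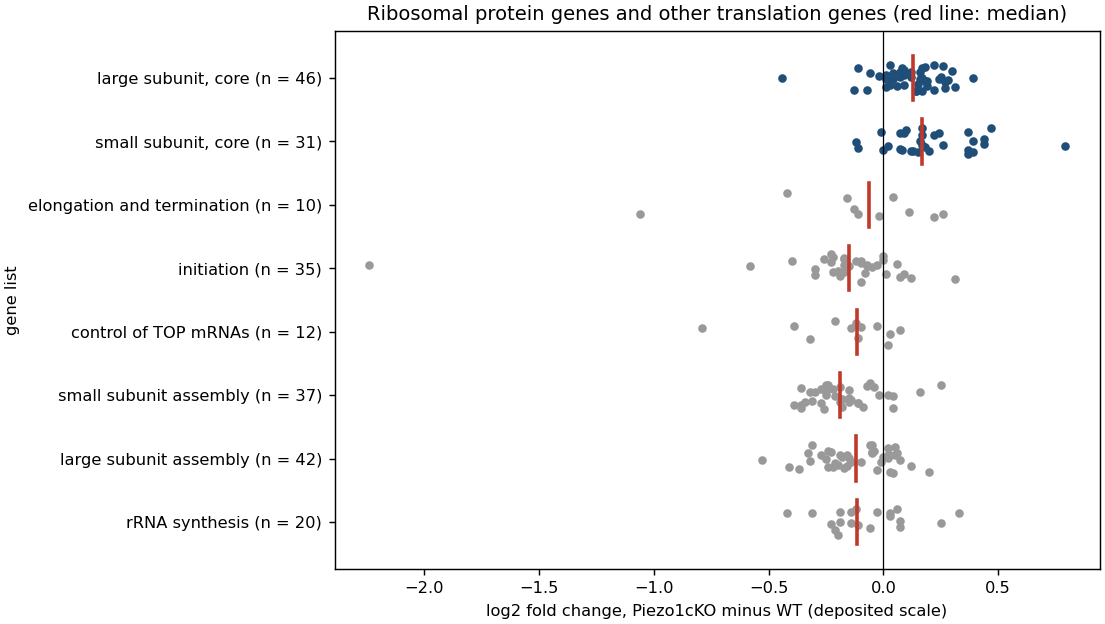
Log2 fold change on the deposited scale of each core ribosomal protein gene (blue) and of the genes of 6 other translation lists (grey), 1 point per gene, scattered at random within a list, with red lines at the medians. The medians of both subunits lay at 0.13 and 0.17, and those of the 6 other lists shown between -0.19 and -0.06. The lists of other TOP genes (median 0.08) and of ribosomal proteins with other symbols (0.03) are not plotted.

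Markers of cell types also differed between the groups. All 12 markers of the LSCs were detected (6 higher and 3 lower in Piezo1cKO LSCs), and their summed normalized recovered reads were 311866 in WT and 183859 in Piezo1cKO LSCs on average, of which *Mpo* had 290103 and 157991. The 7 mast cell and basophil markers summed to 4334 and 12231 (6 higher, none lower, most abundant *Prss34*), and the 9 mature neutrophil markers to 2519 and 936 (1 higher, 5 lower, most abundant *Ngp*, with *Retnlg* at 0). For T and NK cell markers the sums were 4159 and 2582, nearly all *Nkg7* (2 higher, 2 lower), with *Cd8a* at 0 and *Cd3e*, *Cd3g* and *Cd4* at no more than 3 reads in any library. B cell markers summed to 1577 and 2529, nearly all *Cd79b* (4 higher, none lower), with *Ms4a1* and *Pax5* at no more than 3 reads. Monocyte and macrophage markers summed to 11960 and 13393 (4 higher, none lower, most abundant *Ly6c2*, *C1qa* at 0), stroma and endothelium markers to 2915 and 3529 (2 higher, none lower, nearly all *Pecam1*, *Col1a2* at 0), and erythroid markers to 138 and 49 (none higher, 2 lower). Megakaryocyte markers summed to 290 to 346 in WT and 275 to 316 in Piezo1cKO libraries, which overlap, while 2 of the 6 were higher and 3 lower, with the most abundant, *Itga2b*, at 135 and 269 reads. The share of reads on mitochondrially encoded genes, a sign of RNA quality, was 0.380%, 0.354% and 0.308% in WT and 0.360%, 0.376% and 0.335% in Piezo1cKO libraries, which overlap. The part of these cell type differences in the ribosomal protein results was not tested.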

How the data were processed

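RNA-seq of 3 WT and 3 Piezo1cKO LSC libraries was analysed. Poly(A) RNA was reverse transcribed from oligo-dT by a modified Smart-seq2 procedure, cut with Tn5 and sequenced from both ends. The submitters' processing notes name fastp (version 0.20.1), HISAT2 (version 2.2.1), featureCounts (version 2.0.1) and DESeq2 (version 1.28.1), with GRCm38. The authors deposited 1 table of log2 values with the form of a regularized log, a transform that the sources used here do not name, for 55367 rows, 28965 of them at 0 in all libraries.

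Since the table holds no counts, no count model was the main test. Rows with a mean of at least 1 (16746) entered limma 3.58.1 (lmFit, then eBayes with an intensity trend and no covariate, under R 4.3.3), with Benjamini-Hochberg adjustment over all of them. Reads were recovered by undoing the transform. In the 18355 rows averaging 1 recovered read or more, 91.3% of values came within 0.1 of a whole number, against 22.2% with the strength of the shrinkage 10% off. For the members it was 76.3%. In those with a mean of at least 50 reads no value was more than 0.562% from a whole number. For large values such a distance is small by arithmetic, so it does not test the recovery. Recovered reads were fitted with limma-voom and TMM factors for 17352 rows with at least 10 reads in total, with the same thresholds. Reads have no molecular identifiers, and whether strand was used in counting is not given in the sources used here.

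On simulated data for Piezo1cKO against WT, all of 61 genes changed by a log2 fold change of 0.5 were found on the log2 scale (16746 genes, 13 unchanged genes called), and 40 of 63 on reads (13064 genes). Changes smaller than this, as most members had, were not simulated. Recovery of simulated reads was exact for 100% of values of 24366 genes.

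The members and lists were chosen with earlier results of these data known. Named genes were all paralogs and parents, per subunit the 5 largest rises and falls past the threshold with groups apart and the 3 members with most reads per kilobase, members past the DEG thresholds, and the 3 largest rises and falls of each other list. The genes whose starts are printed, and *Rpl11*, *Rpl30*, *Rplp0*, *Rplp1*, *Rplp2*, *Rps21*, *Larp1*, *Mtor*, *Rps27rt* and *Rpl37rt* outside the rule, were chosen after their values were seen. Also reported outside the rule are *Rack1* and, as genes of the TOP list, *Eif3e*, *Eif4b*, *Eef1d* and *Eif3h*. Positions, transcripts (per gene the shortest of the complete ones tagged as principal, where any was) and windows came from GENCODE M21, start windows from RefSeq. Some genes that the rule names are not reported here, and the plot of single members leaves them out. Alternatives are given in the closing section. Other steps ran in Python 3.11.15, using matplotlib 3.10.9 for plots, pandas 2.3.3, scipy 1.17.1 and numpy 2.4.6.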

Additional observations from a re-analysis of the deposited data

Results flagged for a closer look

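The 319 "-ps" rows of ribosomal protein symbols, which the comparisons leave out, carried reads whose sum was higher in Piezo1cKO LSCs. In 172 of them with values, the summed normalized recovered reads were 1433, 1378 and 1485 in WT libraries and 1738, 1860 and 1916 in Piezo1cKO libraries (means of 1432 and 1838). Of the 76 rows tested, 10 rose and 2 fell (limma, adjusted p under 0.05), beside 31.6% and 31.4% of all genes. They held 0.00961% of the recovered reads in WT LSCs on average and 0.0125% in Piezo1cKO LSCs, beside 1.37% and 1.63% for the members. With 3 libraries a group, no test for an outlying library was made.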

How the results depend on the processing

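Across the alternatives, 49 to 61 members rose and 10 or 11 fell (56 and 11 as reported). With a mean of at least 50 recovered reads, 3512 of all genes rose in place of 5298. DEGs among the members numbered 5 in place of 2 on recovered reads, with TMM factors, on library totals, with the "-ps" rows added, with a replicate block or without any 1 library, *Rps3a1*, *Rps4l* and *Rpl3l* being the others, and 4 at an absolute log2 fold change over 0.5.

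The large subunit median of 0.09 was 0.15 on recovered reads, also with "-ps" rows or a replicate block, 0.18 on library totals, 0.12 with a mean of at least 50 reads or without paralogs, 0.11 with libraries centred, 0.13 without pseudogene rows and paralogs, 0.09 to 0.11 without 1 library and 0.13, 0.14, 0.15 or 0.16 on reads without 1 library. The small subunit median of 0.17 was 0.25 on recovered reads and with a replicate block there, 0.29 on library totals, 0.24 with "-ps" rows, 0.19 centred, 0.15 to 0.19 without 1 library and 0.24, 0.25, 0.26 or 0.27 on reads without 1 library. Their difference of 0.08 was 0.11 on recovered reads, on totals and with a replicate block, 0.05 with a mean of at least 50 reads or without paralogs, 0.04 for core genes alone, 0.06 to 0.08 without 1 library and 0.09, 0.10, 0.12 or 0.13 on reads without 1 library. The share of reads in WT LSCs was 1.38% without mitochondrial genes or with "-ps" rows, and without *Rps25* and *Rpl5* the shares were 1.1% and 1.27%.

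In the list of ribosomal proteins with other symbols, where *Fau* rose, 0 genes rose on recovered reads, without a filter, or without WT replicate 2 or 3 or Piezo1cKO replicate 2 or 3, and 2 rose with libraries centred or quantile normalized (range without 1 library 0 to 1). Rises in the initiation list numbered 5 centred, in the list for the control of TOP mRNAs 1 centred, quantile normalized or without Piezo1cKO replicate 3, and in the large subunit assembly list 4 on library totals, 5 centred or with a replicate block and 1 without WT replicate 1. The ratio of *Rpl6l* to *Rpl6* reversed from -0.07 to 0.27 on reads.

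Of 31 named members, 29 kept direction and call under the alternatives run, the exceptions being *Rpl24* and *Rpl4* as given. Same-numbered replicates correlated at 0.20, 0.16 and 0.07 in their deviations from the group means, each best with its own number, which is a hint from the data and not the design. The replicate block called 60 members higher and 11 lower. Chosen after seeing the data were the fits on reads with a replicate block or without 1 library, and those without *Rps25*, *Rps3a1* or *Rpl5*, without pseudogene rows, for the difference of the subunits without paralogs, by shared windows and with a longer TOP reach.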
